A study of Homo sapiens with 12 samples.

Results

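The H9 cells given doxycycline to induce LHX2 were followed from day 4 to day 16 of the experiment: the 2 arrays labelled as Dox+ LHX2 in H9 at day16 were compared with the 2 arrays carrying the same label at day4. These are 4 of the 12 arrays of a series on LHX2 in the neural differentiation of H9, an established human embryonic stem cell line, and they were chosen by their labels alone. Dox-plus cells received doxycycline, an antibiotic used to switch on an engineered gene, for 3 days, and RNA was taken 13 days (day 16) and 1 day (day 4) after that treatment. Dox-minus cells, labelled Dox- LHX2 in H9, were collected at day16 and at day4 with 2 arrays each and serve here as the companion time course. All 8 of these arrays carry the LHX2 label. The series text names GFP as a control, which none of the labels mentions. Whether the line is 1 clone, which promoter drives LHX2, and in which medium the cells grew are points on which the sources used here are silent. The remaining 4 arrays, of shLHX2 and shLuc cells at day 12 of neural induction, entered the fit to estimate the spread between replicates. Day 16 and day 4 without a further word refer to the dox-plus groups.

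When human embryonic stem cells are led toward the neural fate, the genes that hold the pluripotent state are switched off and a neuroepithelium forms that by default takes on an anterior, forebrain-like identity. Within that neuroepithelium the eye field is laid down by a small set of homeobox genes, among them RAX, PAX6, SIX3, SIX6 and LHX2 itself, whose LIM-homeodomain protein also acts in the cortical primordium. Notch signalling keeps neighbouring progenitors from all becoming neurons at once: ligands of the Delta and Jagged families activate Notch receptors, whose cleaved intracellular part joins RBPJ on DNA and raises repressors of the HES and HEY families.

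Each array measured total RNA with Illumina bead probes, and values are background-corrected, quantile-normalized log2 signals of 1 probe a gene. Of 47227 probes, 20489 and 19778 were detected at day 16 and 19296 and 19242 at day 4, within the range of 19050 to 20489 over the series. With 2 arrays a group, their number sets the precision. Testing required detection on both arrays of at least 1 of the 6 groups. A gene detected in only 1 of the compared groups therefore had to differ, and counts over tested members describe those members without adding support. Where both arrays of a group missed a gene, its fold change is a lower bound, written as at least so many fold. It sets the mean of the group that detected the gene against whichever is greater on each other array, the gene's signal or the faintest signal called detected there. Other changes are log2 fold changes ± the standard error (SE) from 1 limma fit to the 12 arrays. The adjusted p-values are those of limma, by the Benjamini-Hochberg method over 15650 genes. The series text calls the samples biological duplicates, and the p-values measure the spread between these samples. In RNA from whole cultures, fewer cells of a type and less RNA per cell cannot be told apart. One feature of the arrays stands apart from the time course. In 8 of 10 genes listed because they differ between the dox groups at both days, among them TMSB15A, ZNF558, TRIM4 and IAH1, signals were higher at day 16 than at day 4 in dox-plus cells. In dox-minus cells the same 8 were lower at day 16 than at day 4. Whether the labels of a pair of groups were exchanged, or the days or dox groups came from separate cultures, was not tested. Either would alter what the changes with time and the differences between dox groups mean, and all results below take the labels as given. List counts with the dox-minus day 4 arrays in place of the dox-plus day 4 arrays are given where they differ from the fitted ones by over 1.5 times, and for some further lists.

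LHX2, the gene the construct encodes, had log2 signals of 12.78 and 13.03 on the day 16 arrays, against 6.04 and 5.45 on the day 4 arrays, and it was detected on both arrays of day 16 and on 1 of 2 arrays of day 4. The groups did not overlap, as for 67% of all genes tested, and the log2 rise of LHX2 was 7.16 ± 0.27 (limma adjusted p = 2.33e-08). In dox-minus cells it stood at 12.18 and 11.91 at day 16, against 5.23 and 4.87 at day 4. The difference of the change with time between dox-plus and dox-minus cells was 0.16 ± 0.39 and was not called (limma adjusted p = 0.834). The single probe of LHX2 lies near the 3′ end of its transcript, and the sources used here do not say whether the construct carries that stretch, so the probe does not check the doxycycline label.

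As fitted, the forebrain and eye field genes had the highest median change of the 28 gene lists. Of 25 listed genes 19 were tested, 15 rose, LHX2 among them, and 1 fell, with a median log2 fold change of 2.65. The median was 1.81 with genes below detection in a group set at their bound. At the bounds it was no longer the highest: the 10 genes listed for differing between the dox groups had 2.14. Neural progenitor genes had 1.78. Over all 15650 genes tested, limma called 36.6%, 17.8% higher and 18.9% lower at day 16, with a median log2 fold change of -0.01. With the dox-minus day 4 arrays in place of the dox-plus ones, 16 forebrain genes were higher and 1 was lower. 

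RAX, the homeobox gene without which vertebrate eyes do not form, had log2 signals of 11.17 and 11.57 on the day 16 arrays, against 5.07 and 4.85 on the day 4 arrays. It was detected on both day 16 arrays and on no day 4 array, and was at least 53.4-fold higher at day 16 (limma adjusted p = 4.72e-08). SIX6, a homeobox gene of retina and pituitary, gave 9.59 and 9.83 at day 16, against 4.76 and 4.97 at day 4, at least 16.8-fold higher (limma adjusted p = 1.16e-07). SIX3, its relative that patterns the anterior forebrain, gave 10.39 and 10.77 at day 16 and 6.31 and 5.24 at day 4, where 1 of 2 arrays detected it, a rise of 4.80 ± 0.36 (limma adjusted p = 1.72e-06). For all of these eye field genes both day 16 arrays were brighter than both day 4 arrays. Over all 15650 genes tested, 67% did not overlap between the groups, counting both directions. SP8, a zinc finger transcription factor of the anterior forebrain, was measured on all 4 arrays, with 11.71 and 11.56 at day 16, against 6.78 and 7.19 at day 4, and rose by 4.65 ± 0.20 (limma adjusted p = 3.65e-08). Genes of other forebrain territories were also brighter at day 16: EMX2 of the dorsal telencephalon, detected on 1 of 2 day 4 arrays, by 3.12 ± 0.31, FEZF1 of the anterior neural plate by 3.29 ± 0.33, and OTX2 of the forebrain and midbrain by 1.81 ± 0.20 (limma adjusted p = 1.67e-05, 1.5e-05 and 3.18e-05). DMRT3, a doublesex-related gene of the dorsal telencephalon in mouse, was at least 3.04-fold higher. EOMES, a T-box gene of cortical intermediate progenitors and of mesendoderm, went the other way and was at least 1.34-fold lower at day 16 (limma adjusted p = 0.00437). OTX1, EMX1 and DLX1 did not pass the test.

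**Figure D1:**
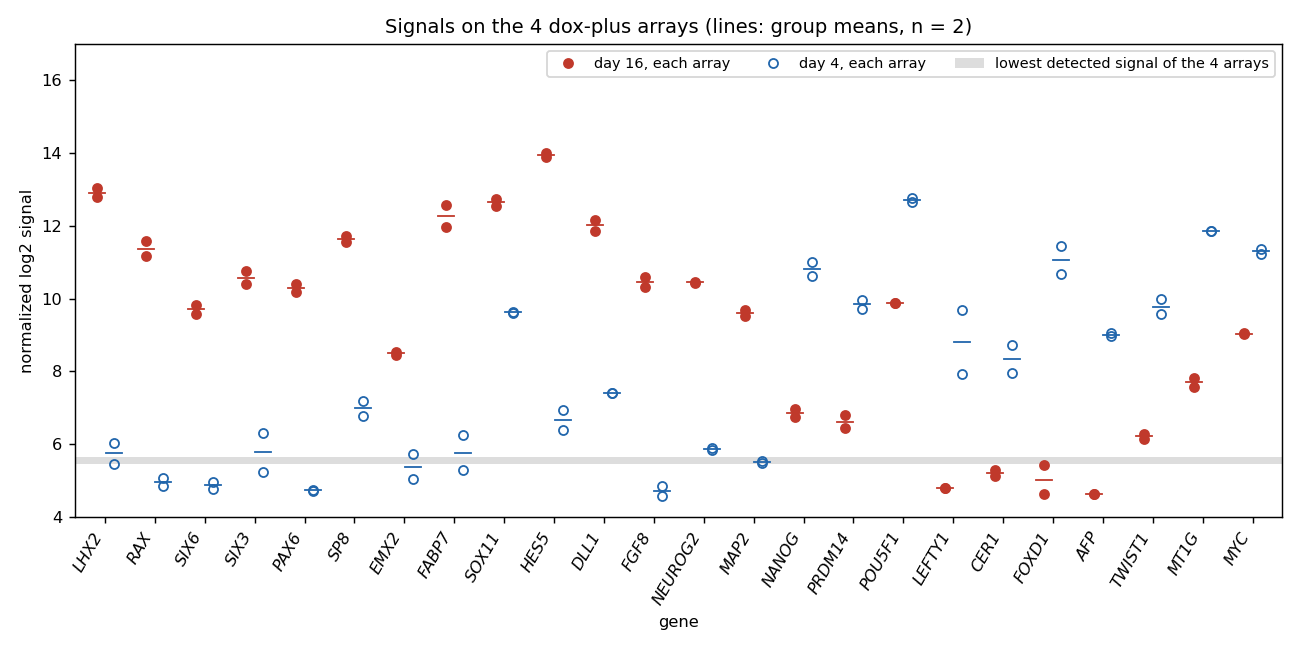
Normalized log2 signal (y axis) of 24 genes (x axis) on the 2 dox-plus day 16 arrays (filled points) and the 2 dox-plus day 4 arrays (open points), with group means as lines and the range of the lowest detected signals of the 4 arrays as a grey band. Signals of LHX2, RAX, PAX6 and HES5 at day 16 lay above those at day 4, and those of NANOG, FOXD1, AFP and MT1G lay lower.

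Neural progenitor and radial glia genes rose in 14 of 22 tested members of 26 listed and fell in 4, with a median of 1.81, or 1.78 at the bounds. With 1 array left out, the list gave 14 higher and 1 lower without day 4 replicate 1 and 14 higher and 2 lower without day 16 replicate 1. With the dox-minus day 4 arrays in place of the dox-plus ones, 14 were higher and 3 lower. PAX6, a paired-box transcription factor of neuroectoderm and eye, had signals of 10.17 and 10.41 on the day 16 arrays, against 4.75 and 4.70 on the day 4 arrays. Detected on both day 16 arrays and on no day 4 array, it was at least 25.2-fold higher (limma adjusted p = 2.4e-08). FABP7, a lipid-binding protein of radial glia, stood at 12.58 and 11.98 on the day 16 arrays, against 5.30 and 6.24 on the day 4 arrays, where 1 of 2 arrays detected it. FABP7 rose by 6.51 ± 0.48 (limma adjusted p = 1.63e-06), the widest SE among the progenitor genes named here. MEIS2, a TALE homeobox gene undetected at day 4, was higher by a factor of at least 23.7. For LMO3, a LIM-only cofactor also undetected at day 4, the factor was at least 13.2. The retinal determination gene DACH1 gave 10.85 and 10.46 on the day 16 arrays, against 6.61 and 6.04 on the day 4 arrays, and rose by 4.33 ± 0.24 (limma adjusted p = 2.01e-07). SOX9, which marks progenitors with gliogenic capacity, rose by 3.80 ± 0.21 and SOX11, a SOX gene of immature neural cells, rose by 3.03 ± 0.23 (limma adjusted p = 1.96e-07 and 1.89e-06). The orphan nuclear receptor genes NR2F1 and NR2F2 had bounds of 4.61-fold and 11.8-fold, higher at day 16. Members that fell were chosen for mention after their values were seen. They include the intermediate filament gene VIM at -0.79 ± 0.18, its relative NES with 10.46 and 10.91 on the day 16 arrays, against 11.93 and 11.45 on the day 4 arrays, and PROM1, which encodes the surface protein CD133, at -0.60 ± 0.19. The calls of NES, VIM and PROM1 each ended when 1 array was left out.

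Among Notch pathway genes, the ligands DLL1 and JAG1, the receptor NOTCH2, the fringe enzyme MFNG and the repressors HES5, HES4 and HEY1 rose, and the repressor HEY2 fell.
Of 17 tested members of 18 listed, 10 rose and 1 fell, with a median of 0.86, and the counts were the same with the dox-minus day 4 arrays in place.

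HES5, the repressor that marks Notch-active neural progenitors, was detected on all 4 arrays, with log2 signals of 13.89 and 14.01 on the day 16 arrays, against 6.93 and 6.38 on the day 4 arrays.
Both day 16 arrays lay far above both day 4 arrays, where 67% of all genes tested did not overlap between the groups. The rise of 7.30 ± 0.22 was the highest of all genes detected on all 4 arrays (limma adjusted p = 7.25e-09).
The 250 bases upstream of the HES5 start are shown because they hold 2 matches to TGGGAA on either strand, the core letters bound by RBPJ, which are in capitals (RefSeq, GRCh38.p14, chr1:2530264-2530513, minus strand, given 5′ to 3′).
HES5: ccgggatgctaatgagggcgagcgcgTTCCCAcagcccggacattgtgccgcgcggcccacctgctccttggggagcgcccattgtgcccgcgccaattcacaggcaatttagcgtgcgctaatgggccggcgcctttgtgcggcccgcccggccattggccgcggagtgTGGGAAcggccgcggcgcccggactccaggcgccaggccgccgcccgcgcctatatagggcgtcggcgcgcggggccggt

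The same letters lie in 20.8% of 35116 RefSeq promoter windows of this length, and of the 10 Notch genes that rose, 7 have a window in the table and 3 of these hold the letters, so the match describes letters, not a binding site. The ligand DLL1 had signals of 11.86 and 12.16 on the day 16 arrays, against 7.42 and 7.39 on the day 4 arrays, and rose by 4.61 ± 0.28 (limma adjusted p = 3.51e-07). MFNG, a glycosyltransferase that modifies Notch receptors, gave 9.06 and 9.23 on the day 16 arrays, against 5.86 and 6.27 on the day 4 arrays, and rose by 3.08 ± 0.21 (limma adjusted p = 8.84e-07). The ligand JAG1 rose by 1.08 ± 0.21, the receptor NOTCH2 by 1.08 ± 0.21, and the feedback regulator NRARP by 1.27 ± 0.19. Among the effectors, HES4 rose by 2.57 ± 0.25 and HEY1 by 3.86 ± 0.25, whereas HES1, HES6, NOTCH3, JAG2, DLL3 and RFNG did not pass the test. HEY2, a relative of HEY1 that is also known from heart and vessels, gave 6.47 and 6.57 on the day 16 arrays, against 9.38 and 10.12 on the day 4 arrays, and fell by 3.23 ± 0.25 (limma adjusted p = 2.14e-06). In dox-minus cells HEY2 went up, with 10.23 and 9.78 at day 16, against 8.99 and 8.73 at day 4, and the difference of the change with time was -4.37 ± 0.35 (limma adjusted p = 1.57e-05).

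Of the neuron and proneural genes, 18 of 27 were tested, 9 rose and 4 fell, with a median of 0.68, or 0.43 at the bounds. The summed linear signal of the tested members overlapped between the groups, with 5737 and 6118 at day 16, against 8200 and 5810 at day 4. The list gave 7 higher and 2 lower without day 4 replicate 1, 8 higher and 2 lower without day 4 replicate 2 or day 16 replicate 2 and 9 higher and 2 lower without day 16 replicate 1. The proneural factor NEUROG2 had signals of 10.46 and 10.43 on the day 16 arrays, against 5.85 and 5.90 on the day 4 arrays, and rose by 4.57 ± 0.25 (limma adjusted p = 1.64e-07). MAP2, a microtubule protein of dendrites, gave 9.53 and 9.68 on the day 16 arrays, against 5.53 and 5.48 on the day 4 arrays, where no array detected it, at least 15.7-fold higher at day 16 (limma adjusted p = 3.65e-08). DCX, the microtubule protein of migrating neurons, rose by 1.39 ± 0.18, and the LIM-homeobox gene ISL1 by 2.47 ± 0.21. The members that fell include genes used as neuron markers: GAP43 of growth cones by 2.31 ± 0.26 and the tubulin TUBB3 by 1.77 ± 0.30 (limma adjusted p = 3.9e-05 and 0.000813). TUBB3 and the other 2 of these, the filament genes NEFL and INA, were named after their values were seen, and leaving out any 1 of the 4 arrays left 2 falls in the list. Axon guidance and adhesion genes rose in 15 of 24 tested members of 30 and fell in 3, with a median of 0.98, or 0.93 at the bounds. Counts were 13 higher and 1 lower without day 16 replicate 1. SLITRK1, a synaptic adhesion protein, gave 9.22 and 9.18 on the day 16 arrays, against 4.67 and 4.61 on the day 4 arrays, at least 11.8-fold higher (limma adjusted p = 4.38e-08), and the ephrin receptor EPHA4 rose by 3.64 ± 0.20, its ligand EFNB1 by 2.79 ± 0.21. The guidance genes SEMA5A and NTN4 had bounds of 4.22-fold and 2.91-fold, higher at day 16.

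Pluripotency genes fell in 10 of 18 tested members of 20 and rose in 3, with a median of -0.93, or -0.88 at the bounds. Leaving out an array gave 1 higher and 11 lower without day 4 replicate 1 and 1 higher and 9 lower without day 16 replicate 1. With the dox-minus day 4 arrays in place, 2 rose and 10 fell, while 1 rose and 10 fell with median scaling and 0 rose and 10 fell with the unnormalized series values. NANOG, a homeobox factor of the pluripotent state, had signals of 6.96 and 6.74 on the day 16 arrays, against 10.99 and 10.63 on the day 4 arrays, and fell by 3.96 ± 0.24 (limma adjusted p = 3.56e-07). POU5F1, which encodes OCT4, stood at 9.89 and 9.88 on the day 16 arrays, against 12.65 and 12.77 on the day 4 arrays, and fell by 2.83 ± 0.22 (limma adjusted p = 2.33e-06). Both genes were still detected on both day 16 arrays. PRDM14, a chromatin regulator of naive and germline pluripotency, fell by 3.22 ± 0.24, UTF1 by 1.64 ± 0.22 and ZSCAN10 by 1.53 ± 0.23 (limma adjusted p = 1.71e-06, 0.000142 and 0.000384). The 3 members that rose were named after their values were seen. They are SOX2, which neural progenitors share with pluripotent cells, at 1.18 ± 0.24, LIN28B, a regulator of let-7 processing, at 0.82 ± 0.27, and SALL4, at 0.66 ± 0.19. The calls of LIN28B and SALL4 ended when 1 array was left out, and those of all 3 ended with the unnormalized series values. LIN28A, with 13.78 and 13.80 on the day 16 arrays, against 13.46 and 13.41 on the day 4 arrays, was not called (limma adjusted p = 0.132).

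**Figure D2:**
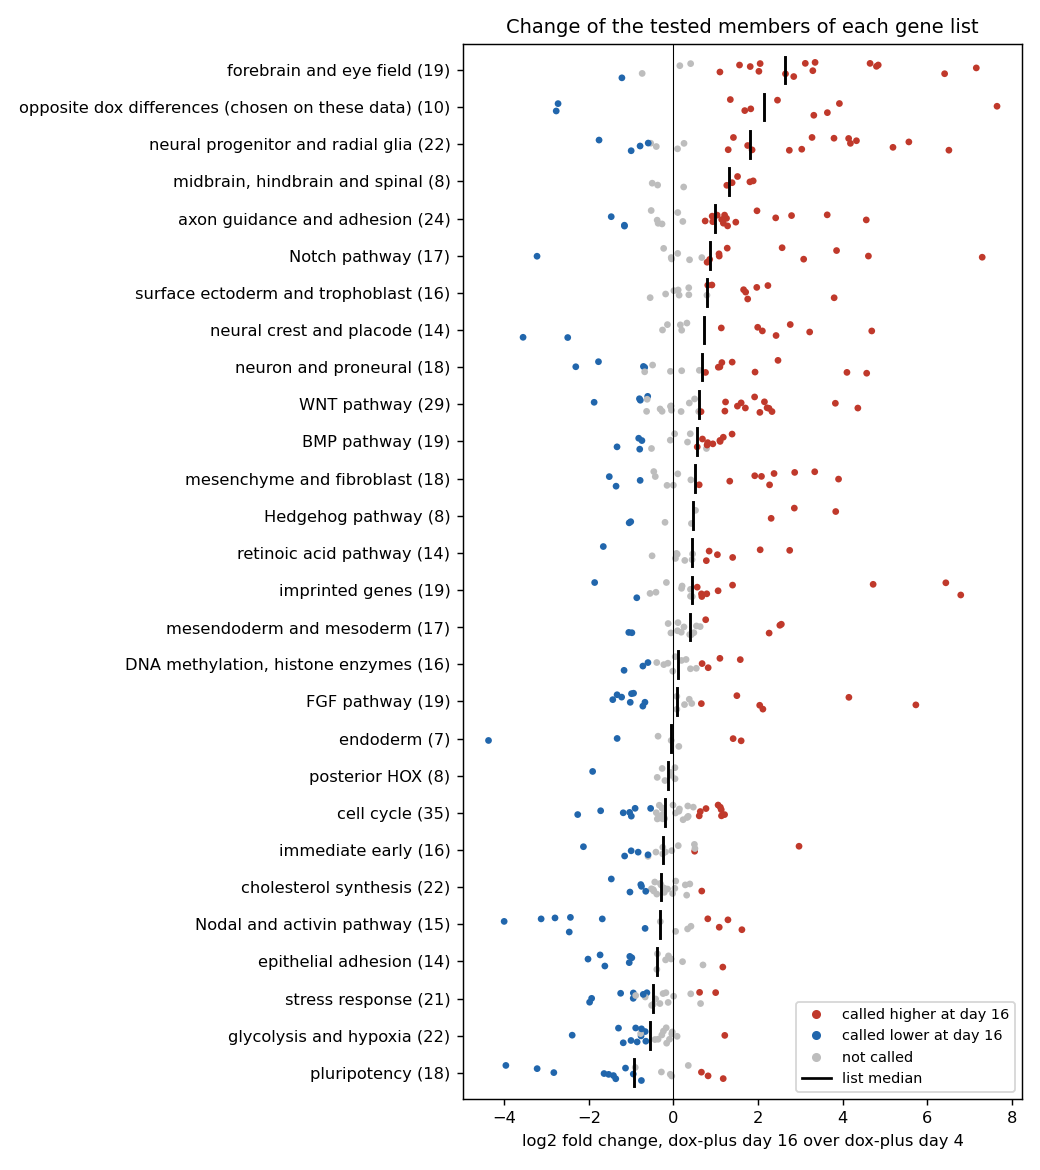
Log2 fold change of dox-plus day 16 over dox-plus day 4 (x axis) for the tested members of 28 gene lists (y axis, number tested in brackets, lists ordered by median), with called genes in red (higher) or blue (lower), others in grey, and list medians as black bars. As fitted, without bounds, the forebrain and eye field list has the highest median, 2.65, and the pluripotency list the lowest, -0.93.

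Nodal and activin signalling, a branch of the TGF-beta family, holds human embryonic stem cells in the pluripotent state and induces mesendoderm, and its ligands NODAL and GDF3 and antagonists LEFTY1, LEFTY2 and CER1 fell. Of 15 tested members of 18 listed, 7 fell and 4 rose, with a median of -0.31, and 4 fell and 4 rose with the dox-minus day 4 arrays in place. The counts became 2 higher and 7 lower without day 16 replicate 1. NODAL itself gave 4.47 and 4.46 on the day 16 arrays, against 6.47 and 7.40 on the day 4 arrays, at least 2.69-fold lower (limma adjusted p = 7.02e-05). LEFTY1, a secreted feedback inhibitor, gave 4.80 and 4.80 on the day 16 arrays, against 7.93 and 9.68 on the day 4 arrays, at least 9.81-fold lower (limma adjusted p = 1.43e-05), and LEFTY2 fell by 2.44 ± 0.38 (limma adjusted p = 0.00043). The day 4 arrays differed from each other in these genes, replicate 2 being the brighter one in NODAL, LEFTY1, LEFTY2, CER1 and GDF3. Each day 4 array lay above both day 16 arrays, where 67% of all genes tested did not overlap between the groups. Bounds were 7.08-fold for CER1, the secreted antagonist Cerberus, and 3.47-fold for GDF3, a ligand of the family, both lower at day 16. With the dox-minus day 4 arrays in place, neither NODAL nor LEFTY2 passed the test (limma adjusted p = 0.0601 and 0.232). FST, which encodes the activin-binding protein follistatin, rose by 1.62 ± 0.19 (limma adjusted p = 6.78e-05).

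FGF pathway genes split by member, with 6 of 19 tested members of 22 higher, 8 lower and a median of 0.08. With 1 array left out, the list gave 6 higher and 5 lower without day 4 replicate 1 and 5 higher and 5 lower without day 16 replicate 2. There were 7 higher and 3 lower with the dox-minus day 4 arrays in place. The ligand FGF8, made by the anterior neural ridge, gave 10.31 and 10.58 on the day 16 arrays, against 4.58 and 4.85 on the day 4 arrays, at least 28.1-fold higher (limma adjusted p = 4.05e-08). The ligand FGF9, undetected at day 4, was at least 13.8-fold higher (limma adjusted p = 1.35e-07). The FGF-induced genes SPRY1 and SPRY2, which encode feedback inhibitors, both rose, SPRY1 by 2.04 ± 0.22, and the ETS factor ETV5 rose by 2.11 ± 0.21. Their relatives SPRY4 and ETV4 fell by 1.44 ± 0.24 and 1.23 ± 0.18 (limma adjusted p = 0.000749 and 0.000308), both outside the naming rule and picked after their values were seen. In the WNT pathway, 14 of 29 tested members of 37 rose and 4 fell, with a median of 0.60, or 0.50 at the bounds. The list gave 13 higher and 2 lower without day 4 replicate 1 and 12 higher and 1 lower without day 16 replicate 1. FRZB, a secreted WNT antagonist, gave 12.42 and 12.34 on the day 16 arrays, against 8.23 and 7.81 on the day 4 arrays, and rose by 4.36 ± 0.22 (limma adjusted p = 1.23e-07). The ligand WNT5B rose by 3.83 ± 0.26, the receptor FZD8 by 2.33 ± 0.21, and the antagonist DKK1, undetected at day 4, was at least 4.24-fold higher. The 4 WNT members that fell were WNT7A, WNT3, WIF1 and AXIN2. BMP pathway genes rose in 9 of 19 tested members of 22 and fell in 4, with a median of 0.56. Counts were 7 higher and 2 lower without day 4 replicate 1, 3 higher and 4 lower without day 4 replicate 2, 3 higher and 2 lower without day 16 replicate 1 and 2 higher and 3 lower without day 16 replicate 2. There were 8 higher and 2 lower with the dox-minus day 4 arrays in place and 2 higher and 4 lower with the unnormalized series values. ID2, a BMP-induced inhibitor of basic helix-loop-helix factors, rose by 1.39 ± 0.26 and SMAD7, an inhibitor of TGF-beta and BMP signalling, fell by 1.34 ± 0.20 (limma adjusted p = 0.00157 and 0.000283). Among Hedgehog genes, of which 8 of 16 were tested, 3 rose and 2 fell. GAS1, a co-receptor, rose by 3.84 ± 0.25, the transcription factor GLI3 by 2.86 ± 0.20, and BOC, a further co-receptor, was at least 2.42-fold higher. The 2 members that fell were GLI1 and FOXA2, with fitted log2 changes of -1.05 and -1.01. Leaving out an array gave 3 higher and 1 lower without day 4 replicate 1 or day 16 replicate 2, 4 higher and 1 lower without day 4 replicate 2 and 3 higher and 0 lower without day 16 replicate 1. There were 4 higher and 1 lower with the dox-minus day 4 arrays in place. Retinoic acid genes rose in 6 of 14 tested members of 18 and fell in 1, DHRS3, a retinaldehyde reductase, by 1.66 ± 0.22. The counts became 3 higher and 1 lower without day 16 replicate 1. There were 3 higher and 1 lower with the unnormalized series values. The retinaldehyde dehydrogenase ALDH1A1 and the retinoic acid hydroxylase CYP26B1, both undetected at day 4, had bounds of 4.25-fold and 2.48-fold, higher at day 16, and the binding protein CRABP2 rose by 1.40 ± 0.18.

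Markers of other lineages were measured to see which cell types besides neuroepithelium the cultures could hold. Of 24 mesendoderm and mesoderm genes 17 were tested, 4 rose and 2 fell, 35.3% against 36.6% over all genes, and the defining gene TBXT was detected on none of the 4 arrays. With 1 array left out, the list gave 5 higher and 1 lower without day 4 replicate 1 and 3 higher and 1 lower without day 4 replicate 2 or day 16 replicate 2. There were 4 higher and 4 lower with the dox-minus day 4 arrays in place. HAND1, a factor of lateral mesoderm and trophoblast, gave 10.69 and 11.03 on the day 16 arrays, against 8.95 and 7.73 on the day 4 arrays, and rose by 2.52 ± 0.37 (limma adjusted p = 0.000305), and FOXC1 rose by 2.55 ± 0.28. Mesenchyme and fibroblast genes rose in 9 of 18 tested members of 20 and fell in 3. The proteoglycan LUM and the collagen COL3A1, both undetected at day 4, had bounds of 9.54-fold and 5.91-fold, higher at day 16, and the matrix protein TGFBI rose by 3.34 ± 0.23. The summed linear signal of the mesenchyme list was 32112 and 34238 at day 16, against 42816 and 32366 at day 4, so the sum overlapped between the groups while single members moved. Surface ectoderm and trophoblast genes rose in 8 of 16 tested members of 18 and none fell, with IGFBP3, which encodes a binding protein of insulin-like growth factors, at 3.80 ± 0.20, while the keratins KRT8 and KRT18 did not pass the test. The list gave 8 higher and 1 lower without day 16 replicate 2. The summed signal of that list was 14091 and 17077 at day 16, against 7412 and 5435 at day 4. That of the forebrain list, which includes LHX2, the gene the construct encodes, was 20368 and 22827, against 2083 and 1785. Of 20 neural crest and placode genes 14 were tested, 7 rose and 2 fell: DLX5, detected on 1 of 2 day 4 arrays, rose by 4.69 ± 0.27, TFAP2A by 3.22 ± 0.36, TWIST1 fell by 3.56 ± 0.20, and FOXD3 was at least 3.13-fold lower, while SOX10 did not pass the test. Of 16 endoderm genes 7 were tested, 2 rose and 2 fell, and AFP, the fetal serum protein alpha-fetoprotein, gave 4.63 and 4.64 on the day 16 arrays, against 8.96 and 9.06 on the day 4 arrays, at least 11.3-fold lower (limma adjusted p = 1.64e-07). Counts were 2 higher and 1 lower without day 4 replicate 1 or day 16 replicate 1. The part of these other cell types in the changes of the neural genes was not tested.

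Beyond the lists, the genes with the highest change among those detected on all 4 arrays were, after HES5, DLK1, LOC650757, SP8, COL2A1, DLL1, NEUROG2 and MAPK10. DLK1, an imprinted gene that encodes a secreted and membrane-bound Delta-like protein, had signals of 15.27 and 15.18 on the day 16 arrays, against 9.05 and 8.52 on the day 4 arrays, and rose by 6.44 ± 0.24 (limma adjusted p = 2.33e-08). COL2A1, a fibrillar collagen of cartilage and notochord, rose by 4.63 ± 0.21, and MAPK10, the JNK3 kinase of the nervous system, by 4.43 ± 0.19 (limma adjusted p = 5.3e-08 and 4.12e-08), and the uncharacterised locus LOC650757 rose by 5.57 ± 0.42. The highest bounds, after RAX, were those of H19 at 48-fold, NCALD, a neuronal calcium sensor, at 31.5-fold, FGF8, PAX6, MEIS2, the imprinted non-coding RNA MEG3 at 20.7-fold, and LOC100130502 at 19.3-fold. MEG3 and DLK1 lie in 1 imprinted domain, and MEG3 gave 9.84 and 10.18 on the day 16 arrays, against 5.33 and 5.24 on the day 4 arrays. FOXD1, a forkhead gene known in mouse from kidney stroma and ventral forebrain, led in the other direction, with 4.62 and 5.43 on the day 16 arrays, against 11.43 and 10.66 on the day 4 arrays, and was at least 46.5-fold lower (limma adjusted p = 1.35e-07). Bounds of lower genes after FOXD1 were 12.6-fold for TIMP4, an inhibitor of metalloproteinases, then those of AFP and LEFTY1, 9.48-fold for the orphan receptor MRGPRF, 7.3-fold for the serotonin receptor subunit HTR3A, that of CER1, and 6.67-fold for OSBP2, an oxysterol-binding family member. Among genes detected on all 4 arrays the deepest falls included those of MIR503HG, the host transcript of a microRNA cluster, by 4.68 ± 0.29, CH25H, cholesterol 25-hydroxylase, by 4.17 ± 0.22, and the metallothioneins MT1G and MT1H. GLIPR1L1 fell by 4.08 ± 0.37, the PDZ-domain gene PDZD4 by 4.03 ± 0.28, and NANOG as above.

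Metallothioneins, small cysteine-rich proteins that bind zinc and copper, fell as a family, which was followed up because of the values of MT1G and MT1H.
MT1G had signals of 7.58 and 7.83 on the day 16 arrays, against 11.86 and 11.87 on the day 4 arrays, and fell by 4.16 ± 0.20 (limma adjusted p = 6.14e-08).
MT1H gave 6.91 and 7.20 on the day 16 arrays, against 11.18 and 11.21 on the day 4 arrays, and fell by 4.14 ± 0.20 (limma adjusted p = 6.14e-08), while its other probe changed by -1.12.
MT2A, the most widely expressed member, gave 7.65 and 7.95 on the day 16 arrays, against 11.07 and 10.62 on the day 4 arrays, and fell by 3.04 ± 0.20 (limma adjusted p = 6.97e-07).
All 10 tested members, near-identical copies among which probes cannot be assigned with certainty, fell in dox-plus cells, with log2 changes between -4.16 and -1.34.
In dox-minus cells their changes ran from -1.53 to -0.26, 9 of 10 were called lower, and for 7 of 10 the difference of the change with time was called lower in dox-plus cells. Of all 15650 genes tested, 18.9% were called lower in dox-plus cells and 1307 genes in dox-minus cells. The difference was called lower for 4.67%.
The 250 bases upstream of MT1H and MT2A are shown because they are dense in matches, 8 and 7, to the metal response element core, TGCACNC or TGCGCNC on either strand, which is in capitals (RefSeq, GRCh38.p14, plus strand, chr16:56669564-56669813 and chr16:56608334-56608583, given 5′ to 3′).
MT1H: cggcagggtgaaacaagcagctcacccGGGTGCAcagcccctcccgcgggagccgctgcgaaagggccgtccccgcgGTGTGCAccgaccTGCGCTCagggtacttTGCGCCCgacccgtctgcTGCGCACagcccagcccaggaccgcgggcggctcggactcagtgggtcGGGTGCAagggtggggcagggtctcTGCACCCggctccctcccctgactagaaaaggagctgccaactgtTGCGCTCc
MT2A: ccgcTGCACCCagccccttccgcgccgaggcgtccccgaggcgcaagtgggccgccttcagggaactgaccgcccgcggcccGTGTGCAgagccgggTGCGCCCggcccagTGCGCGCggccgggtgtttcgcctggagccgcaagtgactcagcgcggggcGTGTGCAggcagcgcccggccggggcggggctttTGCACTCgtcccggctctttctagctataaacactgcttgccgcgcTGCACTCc

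At least 1 such match lies in 24.8% of 35116 RefSeq promoter windows of this length, and the share that holds as many as these was not computed.

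Glycolysis and hypoxia genes fell in 10 of 22 tested members of 24 and rose in 1, with a median of -0.55. Leaving out an array gave 0 higher and 9 lower without day 4 replicate 1, 0 higher and 5 lower without day 16 replicate 1 and 0 higher and 8 lower without day 16 replicate 2. There were 0 higher and 12 lower with median scaling and 0 higher and 13 lower with the unnormalized series values. ADM, the hypoxia-induced peptide adrenomedullin, gave 11.37 and 11.68 on the day 16 arrays, against 14.16 and 13.68 on the day 4 arrays, and fell by 2.40 ± 0.23 (limma adjusted p = 1.21e-05). The aldolase ALDOA fell by 1.30 ± 0.25, while GAPDH, with 14.04 and 14.26 on the day 16 arrays, against 14.36 and 14.49 on the day 4 arrays, was not called (limma adjusted p = 0.276). Cell cycle genes were called in both directions, with 8 of 35 tested members of 36 higher and 7 lower, 42.9% against 36.6% over all genes. The counts became 4 higher and 5 lower without day 4 replicate 1 or day 16 replicate 1. There were 4 higher and 10 lower with median scaling and 3 higher and 14 lower with the unnormalized series values. MYC, the growth-promoting transcription factor, gave 9.03 and 9.04 on the day 16 arrays, against 11.38 and 11.23 on the day 4 arrays, and fell by 2.27 ± 0.17 (limma adjusted p = 2.1e-06). CDK6 fell by 1.19 ± 0.18, and CDKN1B, the inhibitor p27, rose by 1.21 ± 0.23. CDKN2A fell and TOP2A rose, with fitted log2 changes of -1.72 and 1.13. TOP2A was not called with median scaling. The proliferation marker MKI67 was not called (limma adjusted p = 0.31). Epithelial adhesion genes fell in 6 of 14 tested members of 16 and rose in 1: the claudins CLDN7 and CLDN6 fell by 2.02 ± 0.26 and 1.62 ± 0.20, the polarity protein CRB3 by 1.74 ± 0.28, and the cadherin CDH1, with 11.88 and 11.64 on the day 16 arrays, against 11.90 and 12.40 on the day 4 arrays, did not pass the test. With 1 array left out, the list gave 2 higher and 6 lower without day 4 replicate 2. There were 0 higher and 5 lower with the dox-minus day 4 arrays in place.

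In total limma called 5733 of 15650 genes, 2780 higher and 2953 lower at day 16, 48.5% of them higher. Of these, 2962 changed by at least 1 on the log2 scale, 1491 higher and 1471 lower, and 569 by at least 2, 334 higher and 235 lower. Of the higher genes 541 were detected on both day 16 arrays and no day 4 array, and of the lower genes 343 were detected on both day 4 arrays and no day 16 array. The split depended on the scaling: 38.9% of calls were higher with median scaling and 32.2% with the unnormalized series values. The median over all genes was then -0.12 and -0.14. The count was 3261 without day 16 replicate 1 and 3769 without day 4 replicate 1, with 48.7% and 49.3% higher. Of 162 named genes, 35 had a change over 1.5 times smaller without background correction.

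**Figure D3:**
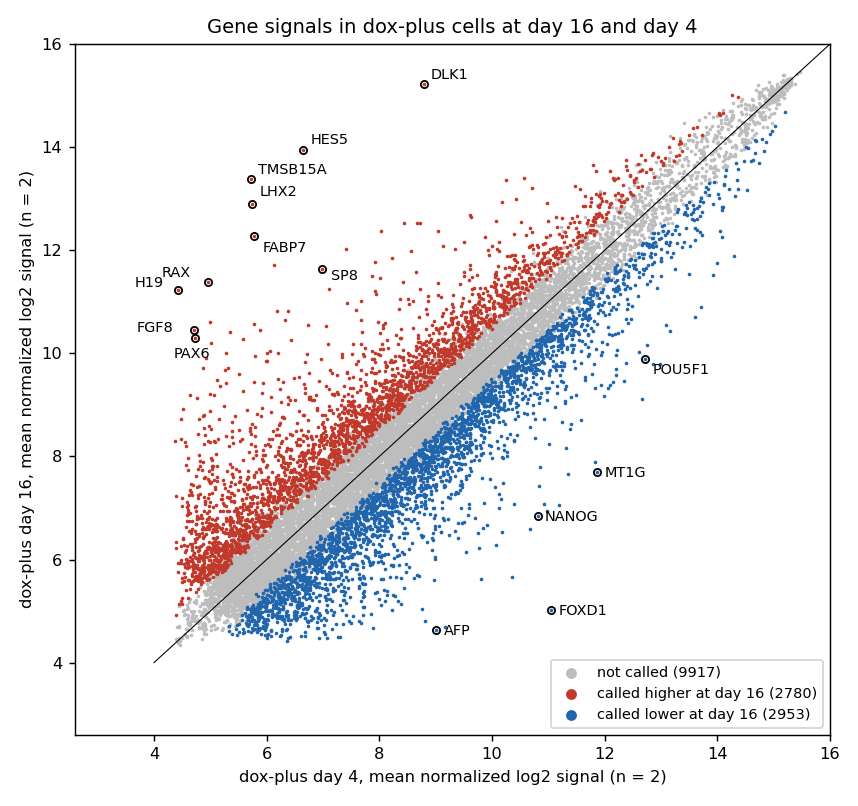
Mean normalized log2 signal of 15650 genes at dox-plus day 16 (y axis) and dox-plus day 4 (x axis), 2 arrays each, with 2780 genes called higher in red, 2953 called lower in blue, the others in grey, and the line of equal signal. Labelled genes are ringed, and HES5, DLK1, LHX2 and RAX lie far above the line while FOXD1, AFP and NANOG lie far beneath it.

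The dox-minus time course shares no array with the dox-plus one and is set beside it as labelled, and whether the 2 courses are comparable was not tested. There limma called 2826 genes, 18.1%, at day 16 against day 4, 1519 higher and 1307 lower. Of the dox-plus calls 31.1% were called in the same direction in dox-minus cells, and of the dox-minus calls 63.2% were called in the same direction in dox-plus cells, 1785 genes in all. A further 127 genes were called in opposite directions. The difference of the change with time, dox-plus minus dox-minus, was called for 1225 genes, 494 (3.16%) higher and 731 (4.67%) lower in dox-plus cells, and 942 of them were among the dox-plus calls. Of the 1225 differences 40.3% were higher, against 28.3% with median scaling and 17.5% with the unnormalized series values, and of the dox-minus calls 53.8% were higher, against 62.1% and 70.3%. The count of 1225 was 584 without dox-plus day 16 replicate 1, 775 without replicate 2 of that group, 659 and 678 without dox-minus day 4 replicate 1 and 2, and 805 and 2137 without dox-minus day 16 replicate 1 and 2.

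By that test the change with time was higher in dox-plus cells for 8 of 22 neural progenitor genes and lower for 2. Leaving out 1 array gave 6 to 9 higher and 0 to 2 lower, with 0 lower without dox-minus day 4 replicate 1, dox-plus day 4 replicate 1 or dox-plus day 16 replicate 1. For forebrain and eye field genes 4 of 19 were higher and 1 was lower, with 3 to 5 higher and 0 to 2 lower when 1 array was left out. FABP7 changed by 6.51 ± 0.48 in dox-plus and 2.85 ± 0.48 in dox-minus cells, a difference of 3.66 ± 0.68 (limma adjusted p = 0.00658). SP8 changed by 4.65 ± 0.20 in dox-plus and 1.39 ± 0.20 in dox-minus cells (limma adjusted p of the difference = 2.28e-05). FGF8 had day 16 signals of 10.31 and 10.58 in dox-plus cells, against 7.37 and 6.56 in dox-minus cells, and the difference of its change was 3.25 ± 0.35 (limma adjusted p = 0.000162). MAP2, NEUROG2, HES5 and SLITRK1 also changed more in dox-plus cells, with differences of 3.23 ± 0.25, 2.49 ± 0.35, 2.32 ± 0.32 and 3.84 ± 0.29 (limma adjusted p = 1.11e-05, 0.00118, 0.00095 and 9.64e-06). For the eye field genes RAX, PAX6, SIX6 and SIX3 the difference did not pass the test, at 0.74 ± 0.41, 0.40 ± 0.31, 0.76 ± 0.35 and 1.77 ± 0.51 (limma adjusted p = 0.304, 0.467, 0.213 and 0.0556). These 4 genes rose in both time courses.

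Posterior HOX and CDX genes, which give trunk cells their position along the body axis, were called in 1 of 8 tested members of 23 in dox-plus cells. That gene was CDX4, at least 1.87-fold lower at day 16, and it did not pass the test with the dox-minus day 4 arrays in place (limma adjusted p = 0.12). In dox-minus cells 7 of 8 rose, and the difference was called lower in dox-plus cells for 8 of 8, or 7 without dox-plus day 16 replicate 1. Over all genes tested the difference was called lower for 4.67%. Of the 8 members, 6 were detected on no dox-plus day 16 array and 5 on no dox-plus day 4 array. A gene could be tested through dox-minus day 16 alone, so these counts describe the members without adding support. HOXB8 was detected on no dox-plus array, with 4.41 and 4.52 at day 16 and 4.84 and 4.86 at day 4. In dox-minus cells HOXB8 gave 10.19 and 9.67 at day 16 and 4.42 and 4.53 at day 4, and HOXB5 showed the same pattern. Mesenchyme genes rose in 15 of 18 tested members in dox-minus cells, and the difference was called lower in dox-plus cells for 8 of 18. Of all 15650 genes tested, 1519 were called higher in dox-minus cells. Of the 18 mesenchyme members, 17 were detected on both dox-plus day 16 arrays and 5 on no dox-plus day 4 array. COL3A1 reached 8.32 and 8.07 at day 16 in dox-plus cells, against 12.00 and 12.39 in dox-minus cells, and its change differed by -4.44 ± 0.36 (limma adjusted p = 1.57e-05). The decorin gene DCN differed by -3.07 ± 0.34, the crest and mesenchyme factor SNAI2 by -2.34 ± 0.29, and the apelin receptor gene APLNR, a mesoderm gene detected on no dox-plus array, by -4.66 ± 0.25 (limma adjusted p = 0.000179, 0.000501 and 5.3e-07).

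**Figure D4:**
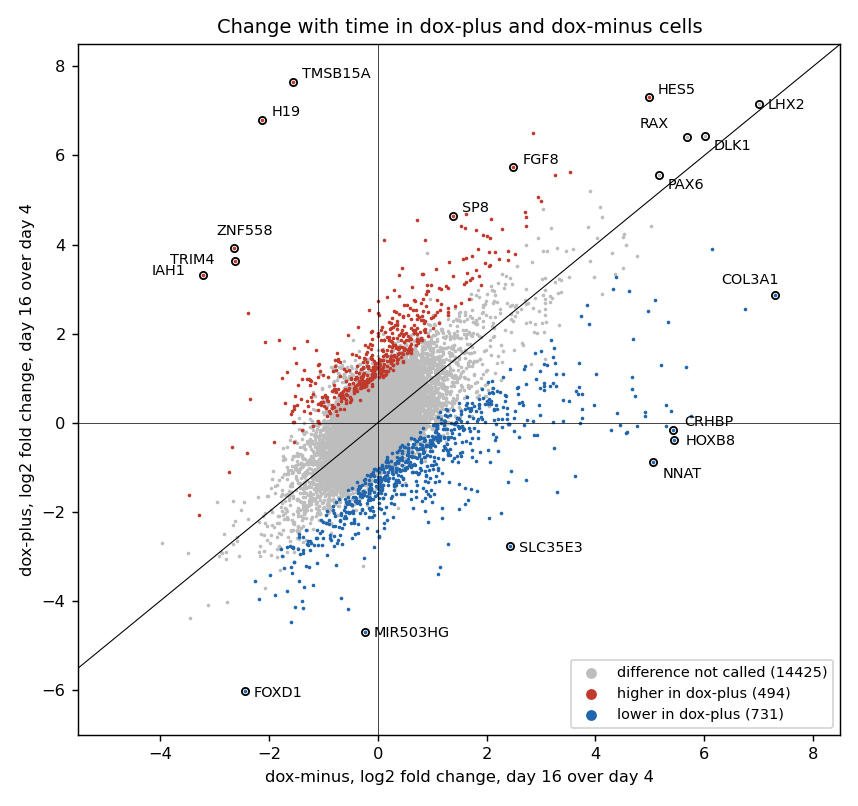
Log2 fold change of day 16 over day 4 in dox-plus cells (y axis) and in dox-minus cells (x axis) for 15650 genes, coloured where the difference was called (494 higher in dox-plus in red, 731 lower in blue), with the line of equal change. LHX2, RAX, PAX6 and DLK1 lie near the line, H19 and TMSB15A at the upper left, and HOXB8, NNAT and CRHBP at the right near or under 0 on the dox-plus axis.

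Imprinted genes, expressed from 1 parental copy, rose in 9 of 19 tested members of 21 and fell in 2. The list gave 5 higher and 1 lower without day 4 replicate 1 or day 16 replicate 1 and 4 higher and 2 lower without day 16 replicate 2. There were 6 higher and 1 lower with the dox-minus day 4 arrays in place and 4 higher and 3 lower with the unnormalized series values. H19, a maternally expressed non-coding RNA, had signals of 11.01 and 11.43 at day 16, against 4.43 and 4.42 at day 4, where no array detected it. In dox-minus cells H19 went the opposite way, with 4.71 and 4.60 at day 16 and 6.89 and 6.65 at day 4, and the difference of the change with time was 8.91 ± 0.37 (limma adjusted p = 1.41e-07). IGF2, the paternally expressed growth factor gene at the same locus, was detected on no dox-plus array, with 5.27 and 5.37 at day 16 and 4.91 and 4.92 at day 4, and did not pass the test. In dox-minus cells IGF2 stood at 11.04 and 10.31 at day 16, against 5.86 and 4.92 at day 4, a difference of the change of -4.89 ± 0.44 (limma adjusted p = 3.48e-05). PHLDA2, an imprinted gene of placental growth, was at least 2.56-fold lower at day 16 (limma adjusted p = 0.000103).

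The 10 genes listed because earlier results of these data had them differ between the dox groups at both days were all called, 8 higher and 2 lower at day 16, and the choice of list used the same arrays, so the counts are a description. TMSB15A, a beta-thymosin that binds actin monomers, gave 13.52 and 13.23 on the day 16 arrays, against 5.85 and 5.60 on the day 4 arrays, and in dox-minus cells 8.22 and 8.96 at day 16 and 10.30 and 9.98 at day 4. The zinc finger gene ZNF558 gave 8.55 and 8.05 on the day 16 arrays, against 4.36 and 4.40 on the day 4 arrays, and the TRIM-family gene TRIM4 8.32 and 8.09 on the day 16 arrays, against 4.52 and 4.60 on the day 4 arrays, both undetected at day 4 and detected on both dox-minus day 4 arrays. IAH1, an esterase, gave 9.17 and 9.30 on the day 16 arrays, against 5.69 and 6.14 on the day 4 arrays, and NLRP2, a protein of the NLR family, 9.58 and 9.64 on the day 16 arrays, against 6.74 and 7.56 on the day 4 arrays. Every one of these day 16 arrays lay above every day 4 array. The choice of list used these arrays, and 67% of all genes tested did not overlap between the groups. Changes were 7.65 ± 0.25 for TMSB15A, 3.32 ± 0.22 for IAH1 and 2.46 ± 0.27 for NLRP2. Bounds were 6.35-fold for ZNF558 and 5.92-fold for TRIM4. CHCHD2, a mitochondrial protein, and the copies CHCHD2P9 and CHCHD2P2, whose probes cannot be assigned with certainty, rose by 1.83 ± 0.23, 1.69 ± 0.17 and 1.34 ± 0.22. In the opposite direction SLC35E3, a solute carrier family member, fell by 2.77 ± 0.24 and CALCB, a calcitonin-related neuropeptide, was at least 3.96-fold lower. With the dox-minus day 4 arrays in place of the dox-plus ones, 3 of the 10 were higher and 2 lower at day 16.

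**Figure D5:**
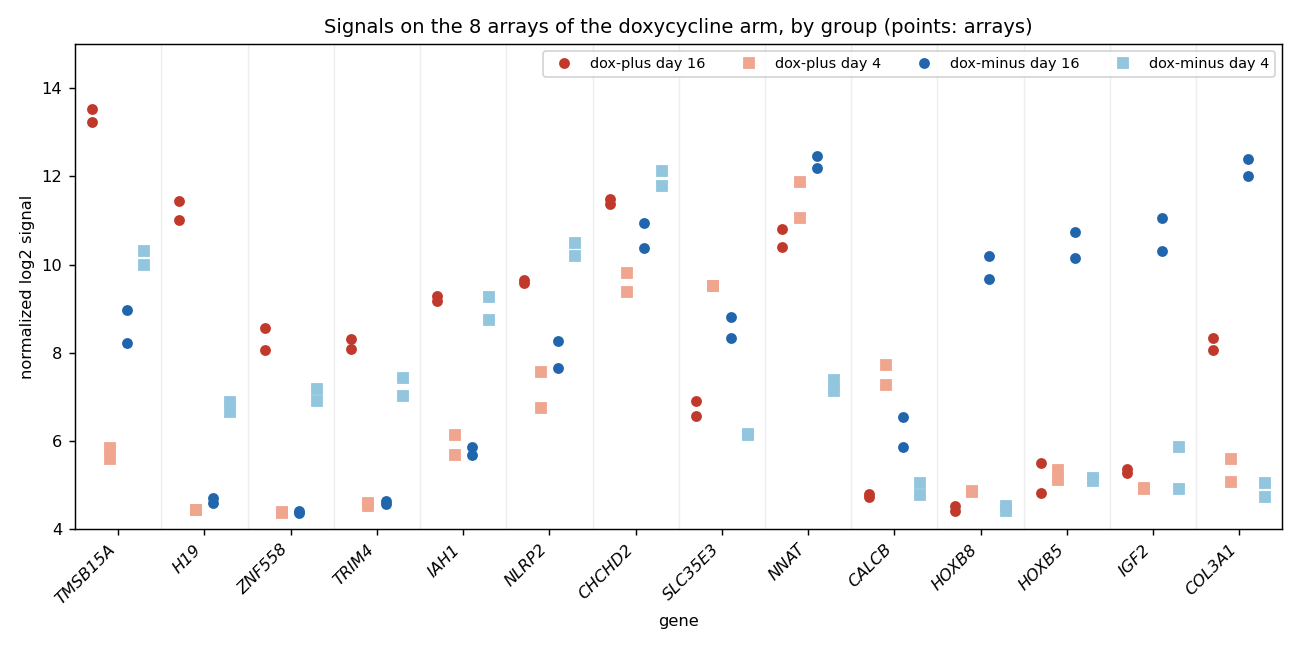
Normalized log2 signal (y axis) of 14 genes (x axis) on the arrays of 4 groups, from left to right dox-plus day 16, dox-plus day 4, dox-minus day 16 and dox-minus day 4, 1 point an array. TMSB15A, H19, ZNF558, TRIM4 and IAH1 are high at dox-plus day 16 and dox-minus day 4, and HOXB8, HOXB5, IGF2 and COL3A1 are highest at dox-minus day 16.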

How the data were processed

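Total RNA of 12 cultures in 6 groups of 2 was hybridised as biotinylated cRNA to 1 Illumina array each. Per the file headers, the deposited values are an average signal, an intensity, and a detection p-value for every one of 47227 probes. Array medians run from 73.1 to 89.2, and the sources used here do not give the scanner software or say whether background was subtracted. A deposited series table repeats these intensity values for 10 of 12 arrays, with the columns of the 2 shLuc arrays exchanged.

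Intensities were background-corrected and quantile-normalized with neqc of limma 3.58.1 in R 4.3.3 (offset 16), using the detection p-values. A probe was kept if both arrays of any group detected it at p under 0.01 (21526, of which 807 had no gene), and the probe with the highest mean stood for each of 15650 genes. Symbols were matched by Entrez identifier to RefSeq (GRCh38.p14): 35670 probes matched, 3270 had no identifier and 8287 kept the file's name. One limma fit of group means over 12 arrays (6 residual and 5.94 prior degrees of freedom) gave the 2 time contrasts and their difference, called at an adjusted p under 0.05, and was tested on simulated data. Replicate differences of dox-plus day 16 and day 4 arrays correlated at -0.42 across genes, so replicate numbers were not used as pairs. Replicates correlated at 0.989 at dox-plus day 16 and 0.979 at dox-plus day 4 across genes, which are not independent.

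Members, lists and tests were chosen with earlier results of these data known. Named genes are LHX2, the 8 top and 8 bottom called changes among genes detected on all 4 arrays, the 8 with the highest bounds in each direction, up to 5 called members of each list, the 6 highest and 6 lowest differences, and the 10 genes of the last list. Further list members (EMX2, FEZF1, OTX2, DMRT3, EOMES, SOX9, SOX11, NR2F1, NR2F2, NES, VIM, PROM1, JAG1, NOTCH2, NRARP, HES4, DCX, TUBB3, SOX2, LIN28B, SALL4, FST, SPRY4, ETV4, WNT7A, WNT3, WIF1, AXIN2, APLNR, IGF2 and genes given as not called) and MT2A fall outside this rule and were chosen after their values were seen. Some genes that the rule names are not reported here. The alternatives changed the scaling, background step, dim-probe filter, choice of probe, variance model, weights, replicate block, threshold or arrays fitted, or left out an array. A crossed block and the dox-minus day 4 arrays in place of the dox-plus ones were chosen after seeing the data.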

Additional observations from a re-analysis of the deposited data

Results flagged for a closer look

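For 1225 genes the change from day 4 to day 16 differed between dox-plus and dox-minus cells by limma's test of that difference, and the 6 highest and 6 lowest of these are given here. TMSB15A had a difference of 9.20 on the log2 scale, H19 of 8.91, ZNF558 of 6.56, IAH1 of 6.54, TRIM4 of 6.26 and NLRP2 of 4.84, all higher in dox-plus cells and all with opposite directions of change in the 2 time courses. The imprinted gene NNAT had a difference of -5.93, with signals of 10.39 and 10.80 at day 16 and 11.87 and 11.06 at day 4 in dox-plus cells, against 12.45 and 12.19 at day 16 and 7.38 and 7.12 at day 4 in dox-minus cells. HOXB8 had a difference of -5.83, EGFLAM, an extracellular matrix gene, of -5.61, CRHBP, whose product binds the stress peptide CRH, of -5.58, and HOXB5 of -5.36. These 4 genes were detected on no dox-plus array of either day and on both dox-minus day 16 arrays. SLC35E3 had a difference of -5.20, lower at day 16 in dox-plus cells and higher in dox-minus cells. Over the alternatives run for the difference, leaving out each dox array included, it kept its sign for all 12 genes. For each of the 12 the difference was smaller in size under some alternatives. It came down to 3.46 for TRIM4 with the mean of all kept probes, and to 4.09 for ZNF558 with the unnormalized series values. The smallest sizes were 6.03 for H19, 7.62 for TMSB15A, 4.43 for IAH1, -3.79 for CRHBP and -4.33 for HOXB8. None of these alternatives exchanged the day 4 arrays of the dox groups. How the difference of these genes depends on the labels was therefore not tested. Leaving out any 1 of the 8 dox arrays did not end the call of any of the 12.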

How the results depend on the processing

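The count of the dox-plus comparison, 5733, was 3335 at an adjusted p under 0.01 and 716 when limma tested for a log2 change over 1 (treat), and ran from 3261 to 5570 when 1 array was left out, a lone array being assumed to vary like the other groups. That of the dox-minus comparison, 2826, was 1518, 365 and 1599 to 2684 under the same changes, and that of the difference, 1225, was 478, 130 and 584 to 2137, and 712 with the 8 dox arrays alone. Under the remaining alternatives these counts stayed within 1.5 times the reported ones. With the replicate block they were 5333, 2995 and 1115, and with crossed replicate numbers the dox-plus count was 6133. Of 162 named genes, 97 kept their direction and their side of the threshold under every alternative. With the dox-minus day 4 arrays in place of the dox-plus day 4 arrays, the sign turned for OLIG2 (-0.30), FOXA2 (0.044), SLC35E3 (0.59), NLRP2 (-0.73), CHCHD2 (-0.52), CHCHD2P9 (-1.02), CHCHD2P2 (-1.06) and NNAT (3.34), and with the mean of all kept probes for INSIG1 (-0.067), causes that were not tested. Dim signals limit detection: a gene listed as undetected may be expressed under the array's background.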

Other observations

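Some lists not described above concern the state of the cells more than their lineage. Stress response genes fell in 7 of 21 tested members and rose in 2, 42.9% against 36.6% over all genes, with a median of -0.48. Counts were 1 higher and 8 lower without day 4 replicate 1 or day 4 replicate 2, 1 higher and 6 lower without day 16 replicate 1 and 1 higher and 7 lower without day 16 replicate 2. There were 1 higher and 7 lower with the dox-minus day 4 arrays in place, 1 higher and 9 lower with median scaling and 1 higher and 10 lower with the unnormalized series values. HMOX1, haem oxygenase, had signals of 6.62 and 6.41 on the day 16 arrays, against 8.40 and 8.60 on the day 4 arrays, and fell by 1.98 ± 0.18 (limma adjusted p = 6.36e-06). In dox-minus cells HMOX1 was higher at day 16, 8.71 and 8.60, than at day 4, 7.73 and 7.86, and the difference of the change was -2.84 ± 0.25 (limma adjusted p = 2.85e-05). The ATF4 target CHAC1 and the p53 target SESN2 fell by 1.94 ± 0.25 and 1.25 ± 0.22, and the heat shock gene HSPA1A, a near-identical copy of HSPA1B, rose by 1.00 ± 0.19. Among 16 tested immediate early genes of 18, 5 fell and 2 rose, 43.8% against 36.6% over all genes. FOSL1 and JUN, which form AP-1, fell by 2.13 ± 0.21 and 1.16 ± 0.17. BTG2, an antiproliferative gene of neurogenic progenitors in mouse, rose by 2.97 ± 0.32 (limma adjusted p = 2.75e-05). BTG2 gave 9.63 and 9.45 on the day 16 arrays, against 6.26 and 6.88 on the day 4 arrays. Leaving out an array gave 1 higher and 5 lower without day 4 replicate 2 and 1 higher and 4 lower without day 16 replicate 1 or day 16 replicate 2. There were 1 higher and 5 lower with the dox-minus day 4 arrays in place, 1 higher and 5 lower with median scaling and 1 higher and 5 lower with the unnormalized series values.

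Cholesterol synthesis genes were called in 27.3% of 22 tested members, against 36.6% of all genes, with 1 higher and 5 lower. The counts became 1 higher and 2 lower without day 4 replicate 1, 0 higher and 5 lower without day 4 replicate 2, 0 higher and 2 lower without day 16 replicate 1 and 0 higher and 3 lower without day 16 replicate 2. There were 1 higher and 1 lower with the dox-minus day 4 arrays in place, 0 higher and 7 lower with median scaling and 0 higher and 9 lower with the unnormalized series values. Of 16 tested enzymes and cofactors of DNA methylation and histone modification 4 rose and 3 fell, 43.8% against 36.6% over all genes. The de novo methyltransferase DNMT3A fell by 1.17 ± 0.25 and the polycomb subunit EED rose by 1.10 ± 0.22. The histone demethylase KDM6B, undetected at day 4, was at least 2.07-fold higher. With 1 array left out, the list gave 3 higher and 1 lower without day 4 replicate 1 or day 16 replicate 1 and 2 higher and 1 lower without day 16 replicate 2. There were 2 higher and 3 lower with median scaling and 2 higher and 2 lower with the unnormalized series values. Genes of the midbrain, hindbrain and spinal cord rose in 5 of 8 tested members of 20, and none fell, with a median of 1.32. There were 4 higher and 2 lower with the dox-minus day 4 arrays in place. With genes below detection in a group set at their bound, the median of the dox-plus comparison was 0.74. HOXB2, a hindbrain gene, gave 6.49 and 6.61 on the day 16 arrays, against 4.69 and 4.64 on the day 4 arrays, at least 1.88-fold higher, against 9.53 and 9.22 at day 16 and 4.48 and 4.88 at day 4 in dox-minus cells, and the difference of its change was -2.81 ± 0.33 (limma adjusted p = 0.00034). OLIG2, a factor of ventral progenitors, was at least 2.68-fold higher at day 16 in dox-plus cells, and in dox-minus cells it was detected at day 4 and not at day 16. Its change was -0.30 with the dox-minus day 4 arrays in place.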
